A study of Homo sapiens with 28 samples.

Results

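The genes described here encode the exon junction complex, a protein assembly that splicing leaves on messenger RNA, and the ASAP and PSAP complexes that dock onto it. Members were the genes of a list of 9 symbols (RNPS1, ACIN1, SAP18, PNN, MAGOH, MAGOHB, EIF4A3, CASC3 and RBM8A). Of these, 8 were found by symbol among the 16482 genes of the table of all reads and among the 13029 genes of the table of T>C reads. RBM8A was not analysed here. The symbols stand for RNPS1 (ENSG00000205937), ACIN1 (ENSG00000100813), SAP18 (ENSG00000150459), PNN (ENSG00000100941), MAGOH (ENSG00000162385), MAGOHB (ENSG00000111196), EIF4A3 (ENSG00000141543) and CASC3 (ENSG00000108349).

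The libraries came from MDA-MB-453, an established human breast carcinoma cell line, by SLAMseq, which marks new RNA with 4-thiouridine so that its reads carry T-to-C changes. Cells were treated for 3 h, and 0.1 mM 4-thiouridine was present for the last 60 min. The groups were DMSO (the solvent control), JQ1, JQ1-VHL, IBET151 and IBET151-VHL, each as a digitonin-soluble cytoplasmic fraction and a nuclear fraction. Each of the 10 groups had n = 3 libraries, except IBET151, with n = 2 in each fraction. JQ1 and I-BET151 are inhibitors that occupy the acetyl-lysine pocket of BET bromodomain proteins, which act at active promoters and enhancers. The names of the other 2 compounds add VHL, the subunit by which an E3 ubiquitin ligase recognises its substrates. Compounds of that design recruit the ligase to the bound protein, which is then degraded. Doses are not in the labels used here, all groups are the same parental cells with no altered gene named, and nothing states that replicates were separate cultures. P-values therefore measure the spread between these libraries, which may be technical.

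The exon junction complex is placed upstream of an exon-exon junction during splicing and stays on the RNA until the first round of translation. EIF4A3, a DEAD-box ATPase, clamps the RNA, the heterodimer of RBM8A with MAGOH or its paralog MAGOHB locks that clamp, and CASC3 joins as a peripheral core factor. RNPS1, SAP18 and ACIN1 form the ASAP complex, and PNN takes the place of ACIN1 in the PSAP complex. Both serve splicing, and RNPS1 also promotes nonsense-mediated decay, in which a complex left downstream of a stop codon marks an RNA for degradation.

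MAGOH and MAGOHB encode nearly the same protein from separate genes, so their sequences decide whether reads can be told apart. The last 120 coding bases of each, from GENCODE release 29, are shown with the bases that differ between the paralogs in capitals.
MAGOH: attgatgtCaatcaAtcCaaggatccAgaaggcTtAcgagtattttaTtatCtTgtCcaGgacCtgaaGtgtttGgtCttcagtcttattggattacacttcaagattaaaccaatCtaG
MAGOHB: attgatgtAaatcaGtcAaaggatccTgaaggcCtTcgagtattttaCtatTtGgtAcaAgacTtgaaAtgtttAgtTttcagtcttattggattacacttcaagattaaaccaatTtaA
The paralogs differed at 17 of these 120 bases and at 60 of 441 aligned coding bases. Their longest shared run in the transcripts was 38 bases, against a read length of 100 bp, and no run of 100 bases was shared. After the stop codon the longest shared run was 10 bases. Values of MAGOH and MAGOHB are thus given separately.

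Of the 7 members tested in the cytoplasm, RNPS1 had the largest and EIF4A3 the smallest drop in new RNA under both VHL compounds. Low DMSO counts limited how far several other members could fall, as given below. The 250 bases before a start of RNPS1 and of EIF4A3 are printed (RefSeq, GRCh38.p14, a build other than the GRCh37 of the deposited tables). The RNPS1 stretch is chr16:2268127-2268376, minus strand, and that of EIF4A3 is chr17:80147129-80147378, minus strand. Capitals mark 4 motifs searched on both strands (the CCAAT box, the ETS motif GGAAGT, the E-box CACGTG and the TATA box TATAAA). The first 2 motifs both appear here in their reverse complement.
RNPS1: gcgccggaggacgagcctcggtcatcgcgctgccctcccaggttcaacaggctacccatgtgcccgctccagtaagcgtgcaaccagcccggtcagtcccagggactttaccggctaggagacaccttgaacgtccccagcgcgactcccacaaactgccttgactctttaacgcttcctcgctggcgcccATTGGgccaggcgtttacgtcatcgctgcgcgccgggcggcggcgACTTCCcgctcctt
EIF4A3: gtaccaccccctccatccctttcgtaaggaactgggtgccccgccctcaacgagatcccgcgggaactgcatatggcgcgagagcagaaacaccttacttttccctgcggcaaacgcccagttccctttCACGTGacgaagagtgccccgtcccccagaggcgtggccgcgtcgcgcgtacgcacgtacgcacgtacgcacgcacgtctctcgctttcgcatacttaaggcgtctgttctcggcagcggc
EIF4A3 was the member with CACGTG in this window, which 6.34% of 35116 promoters hold. The RNPS1 stretch printed held CCAAT and GGAAGT, which 32.0% and 19.5% of those promoters hold. TATAAA, in 10.7% of promoters, was in neither printed stretch. The stretches before the other RNPS1 starts, chr16:2267338-2267587 and chr16:2267887-2268136, held none of the 4 motifs. A promoter entry was found for 7 of the 9 listed members, and a match describes letters in a window only.

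The authors scaled each library to added ERCC RNA, so a value is a read count divided by a library factor and stands for an amount per mass of extracted RNA. Cytoplasmic libraries held 30647584 to 68475299 reads, of which 82264 to 379401 were T>C reads. Nuclear libraries held 17851589 to 38658448 reads, of which 214725 to 1928012 were T>C reads. The 4 nuclear libraries of replicate 1 (DMSO, JQ1, JQ1-VHL and IBET151-VHL) had value totals of 13857990 to 22303955. All other nuclear libraries, the pair of IBET151 included, totalled 38469232 to 67900669. T>C reads were 8.02% and 6.34% of the reads of nuclear DMSO replicates 1 and 2 but 2.25% of those of replicate 3. The nuclear RNAs MALAT1 and NEAT1 were 4.15 and 3.12 log2 units higher in the nuclear than in the cytoplasmic DMSO libraries. All 10 luminal breast markers reached a mean value of 10, while 3 of 5 basal markers (KRT5, KRT14 and ACTA2) stayed under it, and all 5 summed to 25.4 to 49.8 in the cytoplasmic libraries. Of 9 stromal, endothelial and immune markers, 7 had an entry and 4 of these stayed under a mean of 10. The 7 summed to 1225 to 2569 in the cytoplasm, mostly through the collagen gene COL1A1 (1619.9 ± 758 in DMSO, SD, n = 3). No library without 4-thiouridine was analysed here, so the background of T-to-C changes is unknown.

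In the cytoplasm, no member's RNA over all reads passed the test against DMSO, and EIF4A3 had the largest differences. Changes are log2(value + 1) differences from limma, and a gene passed at a Benjamini-Hochberg adjusted p under 0.05 over all genes tested. By that test 0 of 8 members passed under JQ1, JQ1-VHL, IBET151 or IBET151-VHL. Over all genes, 4.82%, 12.9%, 2.52% and 15.8% passed in the same 4 comparisons. At an unadjusted p under 0.05 the members numbered 1, 0, 1 and 1, each time EIF4A3, and both edgeR and DESeq2 on the recovered reads called 0. Here and below, no share of all genes is given for unadjusted p, nor for edgeR and DESeq2 except where stated. Such counts without a share are no result about the members. The median change of the members under the 4 compounds, in that order, was -0.15, -0.06, 0.11 and -0.06, against medians of -0.13, -0.17, 0.00 and -0.15 over all genes. As these values are amounts per mass of extracted RNA, they cannot show a change in cell number or in total RNA per cell.

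EIF4A3, the RNA clamp, had the largest positive difference of the 8. Its cytoplasmic value over all reads was 4351, 9237 and 7070.2 in DMSO and 12381, 9768 and 8214 with JQ1. It was 8271, 8513 and 9011 with JQ1-VHL, 12102 and 11916 with IBET151, and 10579, 9151 and 9273 with IBET151-VHL. DMSO replicate 1 was the lowest of the 14 libraries, and only the IBET151 pair lay wholly above DMSO. Over all genes 7.33% had IBET151 values wholly above DMSO. The log2 difference from DMSO was 0.60 ± 0.22 (SE) with JQ1 (limma adjusted p = 0.16) and 0.39 ± 0.22 with JQ1-VHL (adjusted p = 0.345). It was 0.87 ± 0.25 with IBET151 (adjusted p = 0.0885) and 0.55 ± 0.22 with IBET151-VHL (adjusted p = 0.117). Scaling by median ratios in place of ERCC moved the median of all genes to 0.02 under JQ1, 0.05 under JQ1-VHL and 0.07 under IBET151-VHL. There EIF4A3 passed under all 4 compounds, at 0.76, 0.61, 0.88 and 0.78 (adjusted p = 0.0227, 0.0427, 0.0222 and 0.00827). Without DMSO replicate 2 it passed under JQ1 (0.85, adjusted p = 0.0366), IBET151 (1.11, adjusted p = 0.0168) and IBET151-VHL (0.80, adjusted p = 0.0181). Without DMSO replicate 1, the lowest library, the 4 differences shrank to 0.30, 0.09, 0.57 and 0.26, and none passed. The library numbers in the labels were cut here into 4 runs (927 to 937, 939 to 949, 953 to 961 and 963 to 973). The labels name no such runs or batches. Within these runs the JQ1 difference was 1.51, 0.08 and 0.22. It was 0.93 and -0.12 with JQ1-VHL, 0.39 with IBET151 in the 1 run that held both groups, and 1.28 and -0.01 with IBET151-VHL. Under the VHL compounds EIF4A3 was thus higher in the run of DMSO replicate 1 and just below DMSO in the other.

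The other core genes stayed closer to DMSO. MAGOH had cytoplasmic values of 3971, 7328 and 4915 in DMSO, 4204, 5246 and 5366 with JQ1-VHL, and 4470.5, 5240.0 and 5114 with IBET151-VHL, and each treated group lay inside the DMSO range. MAGOHB averaged 1679.8 ± 461 (SD, n = 3) in DMSO, 1621 ± 202 (n = 3) with JQ1-VHL and 1758 ± 42.8 (n = 3) with IBET151-VHL. CASC3 averaged 1492 ± 265 (SD, n = 3) in DMSO and 1186 ± 53.6 (n = 3) with JQ1-VHL, a difference of -0.32 ± 0.16 (SE, limma adjusted p = 0.264). Without DMSO replicate 3 the CASC3 difference was -0.47 (adjusted p = 0.0479).

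Among the ASAP and PSAP genes, RNPS1 values were 5209, 8165 and 6122 in DMSO, 4624, 5589 and 5595 with JQ1-VHL, and 4673, 5122 and 5249.9 with IBET151-VHL. Those groups overlapped, with differences of -0.28 ± 0.17 (SE, limma adjusted p = 0.373) and -0.35 ± 0.17 (adjusted p = 0.218). With the run of library numbers as a term RNPS1 passed under both, at -0.39 (adjusted p = 0.0280) and -0.46 (adjusted p = 0.0113). SAP18, which also sits in the SIN3 histone deacetylase complex, averaged 9119 ± 1342 (SD, n = 3) in DMSO and between 8881 and 10281 in the treated groups. ACIN1 averaged 1531 ± 728 and PNN 3629 ± 1389 in DMSO (SD, n = 3), and neither differed by more than 0.25 on the log2 scale under any compound.

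**Figure D1:**
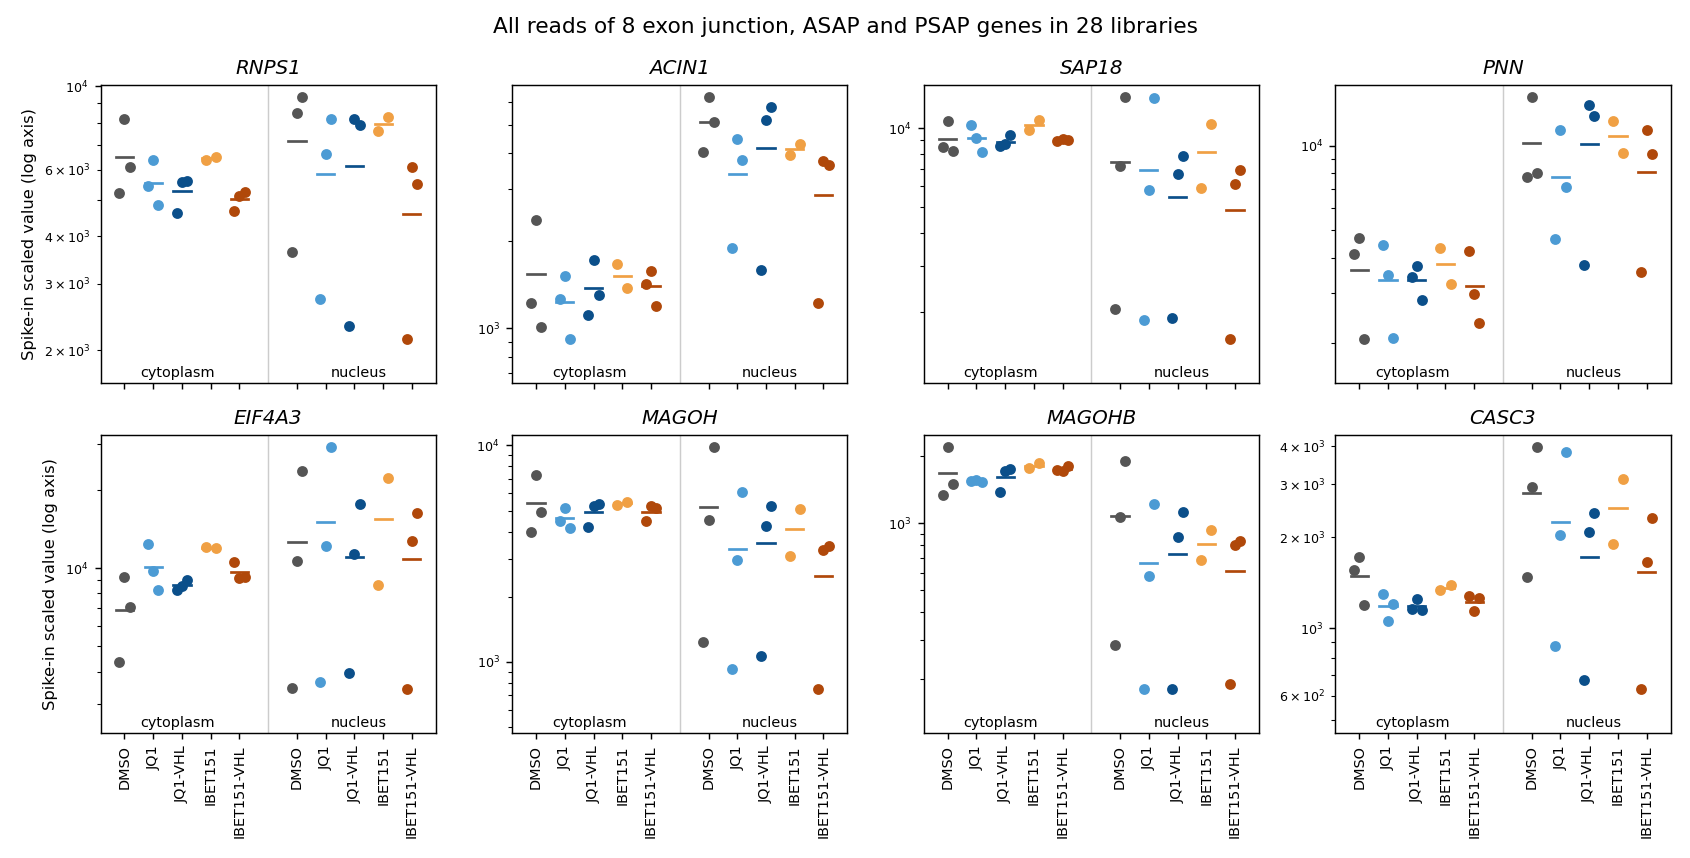
Value over all reads of each member (log axis) in every library, by treatment and fraction; points are libraries and bars are group means. The cytoplasmic EIF4A3 points of IBET151, 12102 and 11916, lie above the 3 DMSO points, while every other member overlaps DMSO under each compound in the cytoplasm.

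In DMSO, ACIN1 and PNN RNA was higher in the nuclear than in the cytoplasmic fraction over all reads. Values are per mass of RNA of a fraction, so they do not give how the RNA of a cell is divided between the fractions. ACIN1 values were 4019.6, 6230.1 and 5132 in the nucleus and 1223, 2362 and 1008 in the cytoplasm, with no overlap. The ACIN1 log2 difference was 1.82 ± 0.53 (SE, limma adjusted p = 0.00425). PNN values were 7721, 14878 and 7978 in the nucleus and 4113, 4713 and 2063 in the cytoplasm, a difference of 1.51 ± 0.56 (adjusted p = 0.0236). Of all genes, 47.9% passed as higher in the nucleus, and the median of all genes was 1.26. The other 6 members ranged from -0.98 for MAGOHB to 0.81 for CASC3 and did not pass. With median-ratio scaling the median of all genes was 0.17, 1 member passed as higher (ACIN1) and 4 as lower: RNPS1 (-1.09), SAP18 (-1.79), MAGOH (-1.60) and MAGOHB (-2.12). PNN was then at 0.37 (adjusted p = 0.314), and it also did not pass without nuclear DMSO replicate 2 (1.20, adjusted p = 0.134) or cytoplasmic DMSO replicate 3 (1.14, adjusted p = 0.153).

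In the nucleus, 0 of 8 members passed over all reads under any compound, while 0.0694%, 1.97%, 0.0971% and 4.55% of all genes passed under JQ1, JQ1-VHL, IBET151 and IBET151-VHL. No member had an unadjusted p under 0.05, and edgeR and DESeq2 called 0. The spread between replicates was wide, as replicate 1 had the lowest value of 3 for every member under DMSO, JQ1, JQ1-VHL and IBET151-VHL. EIF4A3, for example, had nuclear DMSO values of 3467, 10621 and 23697. Deviations of same-numbered libraries ran together in these values outside IBET151, so the replicate number was also fitted as a block. With that block CASC3 passed under JQ1-VHL, at -0.78 (limma adjusted p = 0.04), as did 26.1% of all genes. Under IBET151-VHL 4 members then passed: ACIN1 at -0.98 (adjusted p = 0.00360), CASC3 at -0.94 (adjusted p = 0.00657), MAGOH at -0.90 (adjusted p = 0.00807) and RNPS1 at -0.67 (adjusted p = 0.0454). With the block 46% of all genes passed there, and the median of all genes was -0.71. This block sets replicate 3 of DMSO and JQ1 beside replicate 3 of JQ1-VHL and IBET151-VHL, which lie in another run of library numbers. IBET151 replicates 1 and 2 lie in the runs that hold replicates 2 and 3 of JQ1-VHL and IBET151-VHL, so their numbers do not match this block. With runs of library numbers fitted in its place, 4 members were lower under JQ1, 2 under JQ1-VHL, 2 under IBET151 and 6 under IBET151-VHL. The shares of all genes that passed as lower were then 32.7%, 38.6%, 20.4% and 57.3%.

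New RNA, read as T>C reads, was higher per mass of RNA in the nuclear than in the cytoplasmic DMSO fraction for 8 of 8 members, as for 93.6% of all genes (limma). The log2 difference was 6.54 for ACIN1, 5.56 for PNN, 4.41 for CASC3, 3.31 for MAGOHB, 3.21 for RNPS1, 2.56 for MAGOH, 2.30 for EIF4A3 and 1.49 for SAP18. Their median was 3.26, against 3.62 over all genes. ACIN1 and PNN, the alternative partners of RNPS1 and SAP18, thus stood at the nuclear end of the order and SAP18 at the other. SAP18 (adjusted p = 0.0201) did not pass with median-ratio scaling (0.36, adjusted p = 0.5003), nor without nuclear DMSO replicate 2 (1.09) or 3 (1.38) or cytoplasmic DMSO replicate 3 (1.31).

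In the cytoplasm, new RNA of the members fell under both VHL compounds, as did most genes. All 7 members tested passed as lower under JQ1-VHL and under IBET151-VHL, against 82.8% and 88.3% of all genes tested. MAGOHB was below the minimum (a value of 5 in at least 2 libraries). CASC3 met it only through DMSO, and ACIN1 through DMSO and 1 JQ1 library, so both had to be lower under the VHL compounds and their calls are no result. The median change over all genes was -2.42 and -2.89. As most genes passed too, the count is no result about the other 5 members either. The size of the change differed among them.

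RNPS1, the subunit shared by ASAP and PSAP, had the largest drop of the 7 members tested. With few DMSO reads, the changes of ACIN1 and CASC3 could not go below -3.11 and -2.83. Those of PNN and MAGOH could not go below -4.07 and -5.23. Under IBET151-VHL only SAP18 and EIF4A3 could thus have matched the drop of RNPS1. The cytoplasmic T>C values of RNPS1 were 47.5, 88.6 and 49.7 in DMSO, 24.7, 28.6 and 17.2 with JQ1, and 35.2 and 42.8 with IBET151. They were 2.68, 5.44 and 4.46 with JQ1-VHL, and 0, 2.59 and 0 with IBET151-VHL. Groups did not overlap DMSO for 6 of 7 members under JQ1-VHL and 7 of 7 under IBET151-VHL. The share of all genes without overlap is not given here, so these counts are no result about the members. For RNPS1 every treated library lay below every DMSO library. In reads this was 260 T>C reads over the DMSO libraries and 3 over those of IBET151-VHL, an 85.9-fold lower level after scaling (95% interval 29.1 to 419, counting error only). The log2 change was -3.58 ± 0.53 (SE, limma adjusted p = 2.57e-06) under JQ1-VHL and -5.30 ± 0.53 (adjusted p = 1.83e-09) under IBET151-VHL. Under JQ1 it was -1.33 ± 0.53 and did not pass by limma (adjusted p = 0.0713) or edgeR (adjusted p = 0.0534), though it did by DESeq2 (-1.41, adjusted p = 0.0264).

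SAP18, the partner of RNPS1, had cytoplasmic T>C values of 94.2, 96.2 and 64.2 in DMSO, 15.4, 9.06 and 11.9 with JQ1-VHL, and 2.69, 7.78 and 6.56 with IBET151-VHL. It changed by -2.72 ± 0.43 (SE, limma adjusted p = 5.59e-06) and -3.76 ± 0.43 (adjusted p = 1.84e-08), with no overlap with DMSO. ACIN1 was scarce here, with 4.03, 12.7 and 8.28 in DMSO, and is described by its reads alone. It had 3 T>C reads over the JQ1-VHL libraries and 2 over those of IBET151-VHL, against 36 in DMSO. PNN had 20.9, 28.7 and 6.21 in DMSO, 1.34, 4.53 and 8.91 with JQ1-VHL, and 0.673, 1.73 and 2.98 with IBET151-VHL. Under JQ1-VHL the PNN groups overlapped, and its change of -1.73 (adjusted p = 0.0113) did not pass without JQ1-VHL replicate 1 (-1.18, adjusted p = 0.0913) or DMSO replicate 2 (-1.32, adjusted p = 0.0809). Under IBET151-VHL its change was -2.67 (adjusted p = 0.000249).

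Among the core genes, EIF4A3 changed least. Its cytoplasmic T>C values were 70.8, 131 and 72.4 in DMSO, 26.8, 37.1 and 24.5 with JQ1-VHL, and 18.8, 36.3 and 26.8 with IBET151-VHL. It changed by -1.56 ± 0.38 (SE, limma adjusted p = 0.000623) and -1.69 ± 0.38 (adjusted p = 0.000203). With the parent compounds EIF4A3 lay at or above DMSO, at 155, 141 and 80.4 with JQ1 and at 195 and 175 with IBET151. The IBET151 difference of 1.07 ± 0.43 did not pass (adjusted p = 0.122), although its pair lay wholly above DMSO, as for 4.92% of all genes. MAGOH went from 28.98, 52.3 and 32.1 in DMSO to 6.70, 4.53 and 5.20 with JQ1-VHL and to 4.04, 8.64 and 6.56 with IBET151-VHL, changes of -2.55 (adjusted p = 3.55e-05) and -2.39 (adjusted p = 4.82e-05).

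MAGOHB had few new reads in the cytoplasm, 20 over the DMSO libraries. It had 0 of 6333 reads with JQ1-VHL, which allows a T>C share of up to 0.0474% and puts its scaled level at least 6.03-fold lower than in DMSO (3 reads over the group as the limit, the DMSO count taken as exact). An exact 95% interval that counts the error of both groups begins at 4.46-fold lower. It had 1 read each with IBET151 and IBET151-VHL, the latter 19.8-fold lower (95% interval 3.17 to 822). CASC3 values were 6.44, 7.60 and 4.66 in DMSO, 1.70, 0 and 0 with JQ1, 0, 2.72 and 0 with JQ1-VHL, and 0, 1.73 and 0 with IBET151-VHL. Those are 26, 2, 3 and 2 T>C reads. Under JQ1 1 of 7 members passed as lower by limma, against 20.1% of all genes. That member was CASC3, whose direction the minimum had fixed, so the call is no result, and it was lost by edgeR and DESeq2. Under IBET151 0 of 7 passed by limma, edgeR or DESeq2, against 7.29% of all genes by limma, and 2 had an unadjusted p under 0.05.

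**Figure D2:**
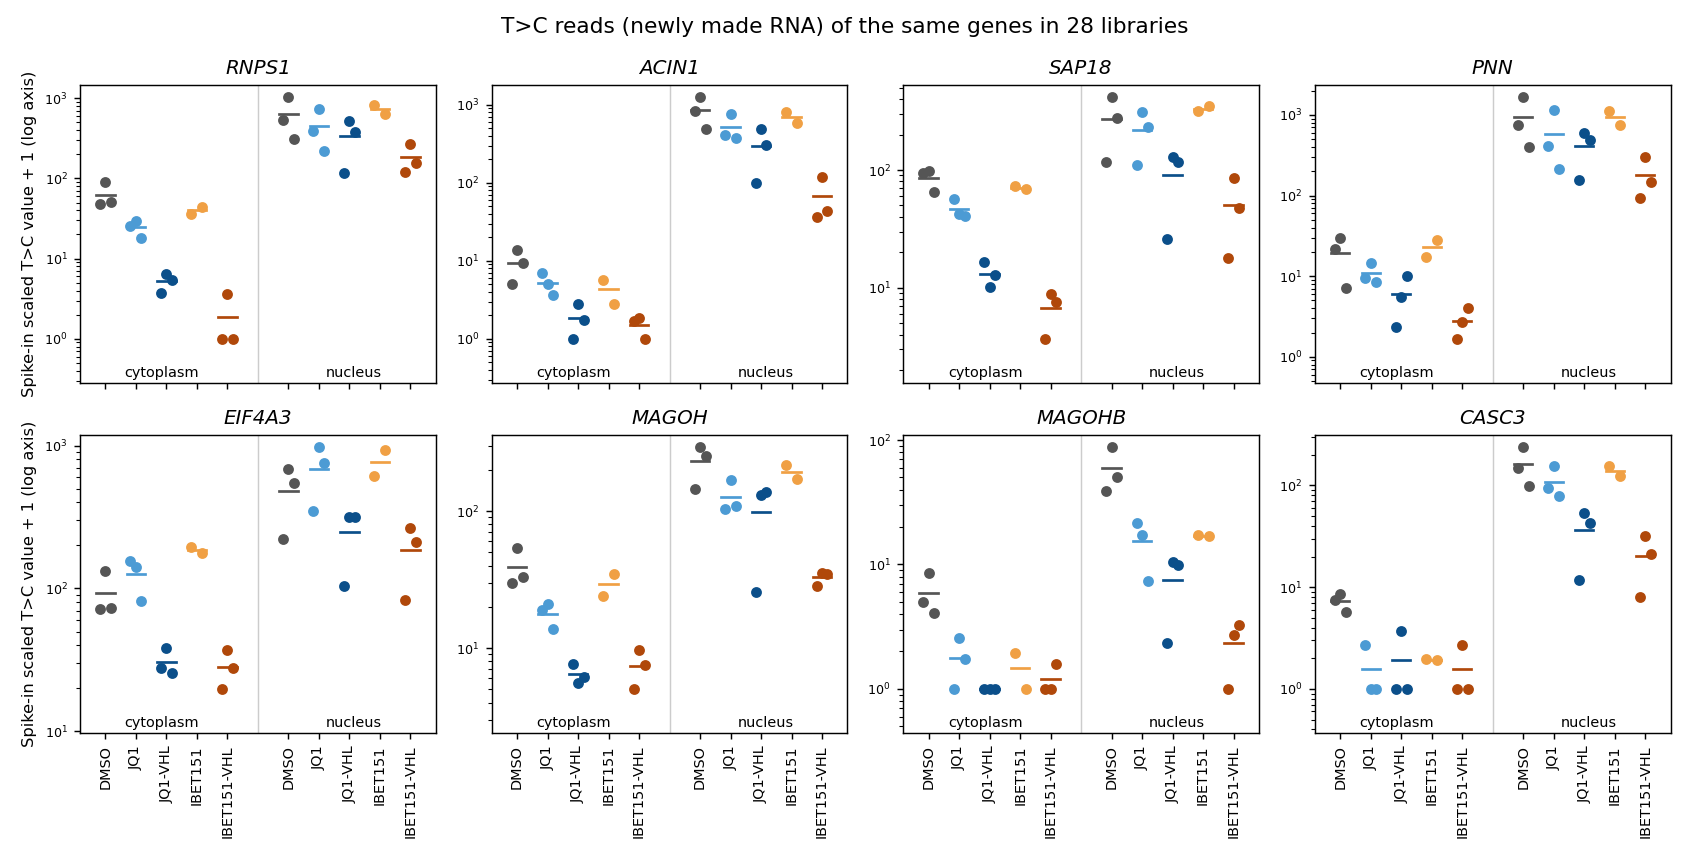
T>C value + 1 of each member (log axis) in every library, by treatment and fraction; points are libraries and bars are group means. In the cytoplasm 2 of the 3 RNPS1 libraries of IBET151-VHL are at 0, against 47.5 to 88.6 in DMSO, while the nuclear RNPS1 libraries of IBET151-VHL stay between 120.3 and 272.

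In the nucleus, new RNA of all 8 members passed as lower under IBET151-VHL, and that of 4 of 8 under JQ1-VHL. Under JQ1-VHL the changes of all 8 were negative, the smallest at -0.97. Over all genes 83.9% and 60.5% passed as lower, so these counts are no result about the members. The medians of the members were -2.63 and -1.60, against -3.12 and -1.92 over all genes. Median-ratio scaling moved those all-gene medians to -2.46 and -1.44. With runs fitted as a block all 8 members passed under JQ1-VHL, where 83% of all genes then passed as lower. No member passed under JQ1 (2.41% of all genes) or IBET151 (1.3%), with 1 and 0 members at an unadjusted p under 0.05 and 0 by edgeR or DESeq2. The run block called 1 under JQ1, MAGOHB at -1.99 (adjusted p = 0.0468).

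MAGOHB had the largest nuclear drop. Its T>C values were 38.0, 86.7 and 49.8 in DMSO, 20.6, 16.3 and 6.42 with JQ1, and 16.1 and 15.9 with IBET151. They were 1.34, 9.47 and 8.89 with JQ1-VHL, and 0, 1.73 and 2.24 with IBET151-VHL. The 4 treated groups all lay below DMSO, and only the VHL compounds passed, at -3.16 ± 0.89 (SE, limma adjusted p = 0.00209) and -4.75 ± 0.89 (adjusted p = 5.18e-07). Of the 8 members, 1, 3, 1 and 7 did not overlap DMSO under JQ1, JQ1-VHL, IBET151 and IBET151-VHL. No share of all genes without overlap is given here, so these counts are no result about the members. MAGOHB had 116 T>C reads over the DMSO libraries and 2 over those of IBET151-VHL, a 61.9-fold lower level after scaling (95% interval 16.8 to 518). Its paralog MAGOH went from 145, 292 and 251 in DMSO to 27.2, 34.6 and 33.6 with IBET151-VHL (-2.76, adjusted p = 0.000169), and at 24.8, 131 and 138 with JQ1-VHL it did not pass (-1.50, adjusted p = 0.0522).

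ACIN1 had T>C values in the nucleus of 839, 1258 and 488 in DMSO, 97.8, 491 and 302 with JQ1-VHL, and 35.7, 119 and 42.5 with IBET151-VHL. It changed by -3.80 ± 0.68 (SE, limma adjusted p = 1.19e-07) under IBET151-VHL, without overlap, and by -1.71 ± 0.68 (adjusted p = 0.0229) under JQ1-VHL, with overlap. CASC3 went from 148, 237 and 97.7 in DMSO to 10.7, 53.0 and 42.2 with JQ1-VHL and to 6.99, 31.1 and 20.2 with IBET151-VHL. The CASC3 changes were -2.33 (adjusted p = 0.00532) and -3.11 (adjusted p = 5.23e-05). SAP18 went from 115, 416 and 278 in DMSO to 24.8, 129 and 116 with JQ1-VHL (-1.70, adjusted p = 0.0269) and to 17.1, 84.8 and 47.0 with IBET151-VHL (-2.50, adjusted p = 0.000523). The JQ1-VHL calls of ACIN1 and SAP18 were lost with median-ratio scaling (-1.17 each), without JQ1-VHL replicate 1 (-1.06 and -0.95) and without DMSO replicate 2 (-1.39 and -1.30).

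RNPS1 and EIF4A3 had the smallest nuclear changes. RNPS1 had nuclear T>C values of 542, 1035 and 308 in DMSO, 117, 515 and 378 with JQ1-VHL, and 120.3, 272 and 154 with IBET151-VHL. EIF4A3 had 222, 681 and 546 in DMSO, 102, 316 and 318 with JQ1-VHL, and 82.3, 265 and 210.5 with IBET151-VHL. Under JQ1-VHL neither passed (-0.97, limma adjusted p = 0.185, and -0.996, adjusted p = 0.173), nor did PNN (-1.14, adjusted p = 0.122). Under IBET151-VHL RNPS1 was at -1.69 ± 0.68 (SE, adjusted p = 0.0154) and EIF4A3 at -1.38 ± 0.68 (adjusted p = 0.0479), and PNN at -2.29 (adjusted p = 0.0011). The calls of RNPS1 and EIF4A3 were lost with median-ratio scaling (-0.92, adjusted p = 0.165, and -0.61, adjusted p = 0.284), without IBET151-VHL replicate 1 (-1.44 and -0.88) and when DMSO replicate 2 was left out (-1.25 and -1.06).

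**Figure D3:**
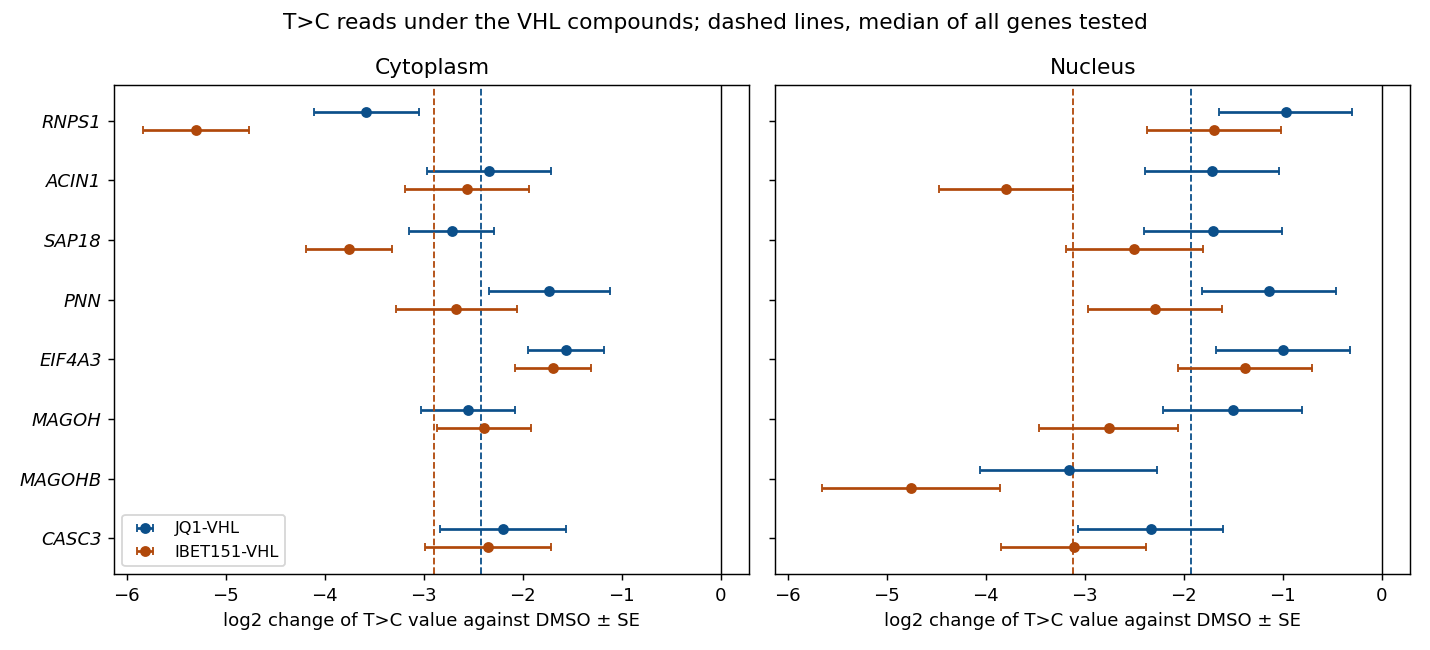
Log2 change of T>C reads against DMSO (points, with SE as bars) of each member under JQ1-VHL and IBET151-VHL, cytoplasm and nucleus in separate panels; dashed lines are the medians of all genes. RNPS1 is the lowest of the members tested in the cytoplasm (-3.58 and -5.30), and MAGOHB is the lowest in the nucleus (-3.16 and -4.75). In the cytoplasm low DMSO counts kept ACIN1 and CASC3 from falling as far as RNPS1, and under IBET151-VHL also PNN and MAGOH.

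T>C reads were also set against all reads of the same gene, which removes a library's scaling where T>C values are well above the added 1. Near 0 the ratio still depends on the scaling and the added 1, as for RNPS1 with IBET151-VHL (T>C values of 0, 2.59 and 0). In the cytoplasm all 7 members tested had a lower ratio under JQ1-VHL (76.9% of all genes) and under IBET151-VHL (82.6%), among them ACIN1 and CASC3, whose direction the minimum had fixed. The T>C share of RNPS1 reads was 0.936% ± 0.139 (SD, n = 3) in DMSO, 0.419% ± 0.0554 (n = 3) with JQ1, 0.605% ± 0.0750 (n = 2) with IBET151, 0.0783% ± 0.0197 (n = 3) with JQ1-VHL and 0.0169% ± 0.0292 (n = 3) with IBET151-VHL. Its log2 ratio changed by -3.30 (limma adjusted p = 4.26e-06) under JQ1-VHL and -4.95 (adjusted p = 2.1e-09) under IBET151-VHL. EIF4A3, whose total was not lower, went from 1.36% ± 0.306 (SD, n = 3) to 0.344% ± 0.0840 and 0.288% ± 0.109 (n = 3 each). Its log2 ratio changed by -1.95 (adjusted p = 1.17e-05) and -2.25 (adjusted p = 6.53e-07). Under JQ1 1 of 7 passed, against 7.48% of all genes with a lower ratio, and it was again CASC3, so the call is no result. There 0 of 7 passed under IBET151 (3.22% of all genes, 1 member at an unadjusted p under 0.05).

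In the nucleus the ratio was lower for 7 of 8 members under IBET151-VHL, against 67% of all genes. MAGOHB went from 8.05% ± 5.41 (SD, n = 3) in DMSO to 0.161% ± 0.142 (n = 3), a log2 change of -4.03 (limma adjusted p = 0.00103). Its T>C values with IBET151-VHL were 0, 1.73 and 2.24, so that change also depends on the scaling and the added 1. ACIN1 went from 16.9% ± 6.37 to 2.42% ± 1.09 (n = 3 each), a change of -2.82 (adjusted p = 0.000183). RNPS1 was the member that did not pass, at 10.1% ± 6.07 in DMSO and 4.29% ± 1.41 with IBET151-VHL (-1.03, adjusted p = 0.126). Without DMSO replicate 1 the count was 4 of 8, and 47.5% of all genes passed as lower. Under JQ1-VHL 0 of 8 passed by limma (15.4% of all genes), with 4 at an unadjusted p under 0.05. Without DMSO replicate 3, the nuclear DMSO library with the lowest T>C share, all 8 passed under JQ1-VHL, as did 53.4% of all genes, and with the run block all 8 passed beside 69.9% of all genes. JQ1 and IBET151 gave 0 of 8 (0.0249% and 0.0415% of all genes), with 0 at an unadjusted p under 0.05.

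Each VHL compound was compared with its parent at the same time of treatment, with doses unknown. Over all reads 0 of 8 members differed in either pair or fraction (limma, edgeR and DESeq2), and none had an unadjusted p under 0.05. A block for replicate number gave 7 nuclear members between IBET151-VHL and IBET151, beside 64.8% of all genes lower. That block pairs the IBET151 libraries with libraries of another run, and with the run block the count was 0. Of all genes 4.23% passed between JQ1-VHL and JQ1 and 7.91% between IBET151-VHL and IBET151 in the cytoplasm, and 0.298% and 0.541% in the nucleus. The differences of the total between JQ1-VHL and JQ1 in the cytoplasm ran from -0.22 (EIF4A3, 95% interval -0.68 to 0.25) to 0.17 (ACIN1, -0.43 to 0.77).

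In cytoplasmic T>C reads, 5 of 7 members were lower with JQ1-VHL than with JQ1, against 46.5% of all genes. RNPS1 differed by -2.25 (95% interval -3.33 to -1.16, limma adjusted p = 0.00155), EIF4A3 by -2.02 (-2.80 to -1.24, adjusted p = 0.00018) and SAP18 by -1.84 (adjusted p = 0.00142). MAGOH (-1.45, adjusted p = 0.0145) and ACIN1 (-1.56, adjusted p = 0.0426) also passed, and both were lost without JQ1 replicate 2. ACIN1 had met the minimum only through DMSO and 1 JQ1 library, with 3 T>C reads under JQ1-VHL against 19 under JQ1. Its call, counted among the 5, is thus no result. PNN (-1.06, interval -2.31 to 0.19) and CASC3 (0.15, interval -1.15 to 1.45) did not pass. Between IBET151-VHL and IBET151 5 of 7 were lower (69.1% of all genes), with RNPS1 at -4.70 (interval -5.92 to -3.48, adjusted p = 3.16e-07) and SAP18 at -3.50 (adjusted p = 1.09e-06). PNN (-3.07, adjusted p = 0.000376), EIF4A3 (-2.76, adjusted p = 4.87e-06) and MAGOH (-2.01, adjusted p = 0.0018) were lower too. ACIN1 (-1.46, adjusted p = 0.0636) and CASC3 (-0.47, interval -1.92 to 0.99) did not pass. CASC3 thus had few new cytoplasmic reads with parents and conjugates alike. RNPS1 averaged 23.5 with JQ1 and 39.0 with IBET151, against 4.19 and 0.864 with their conjugates.

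In nuclear T>C reads, all 8 members were lower with IBET151-VHL than with IBET151 (81.4% of all genes), from -2.07 for RNPS1 (limma adjusted p = 0.0087) to -3.56 for ACIN1 (adjusted p = 1.72e-05). The IBET151 pair holds none of the nuclear libraries with low totals, whereas IBET151-VHL replicate 1 is among them. Median-ratio scaling (-1.25) ended the RNPS1 call there, as did leaving out IBET151 replicate 1. EIF4A3 (-2.17, adjusted p = 0.00601) was lost without IBET151 replicate 2 or IBET151-VHL replicate 1. Between JQ1-VHL and JQ1 0 of 8 passed by limma, edgeR or DESeq2 (13.3% of all genes by limma), with 3 at an unadjusted p under 0.05. The 3 were CASC3 (-1.79, adjusted p = 0.077), EIF4A3 (-1.53, adjusted p = 0.0965) and SAP18 (-1.44, adjusted p = 0.125). With runs fitted as a block 7 of 8 passed as lower, all but MAGOH, beside 61.3% of all genes.

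**Figure D4:**
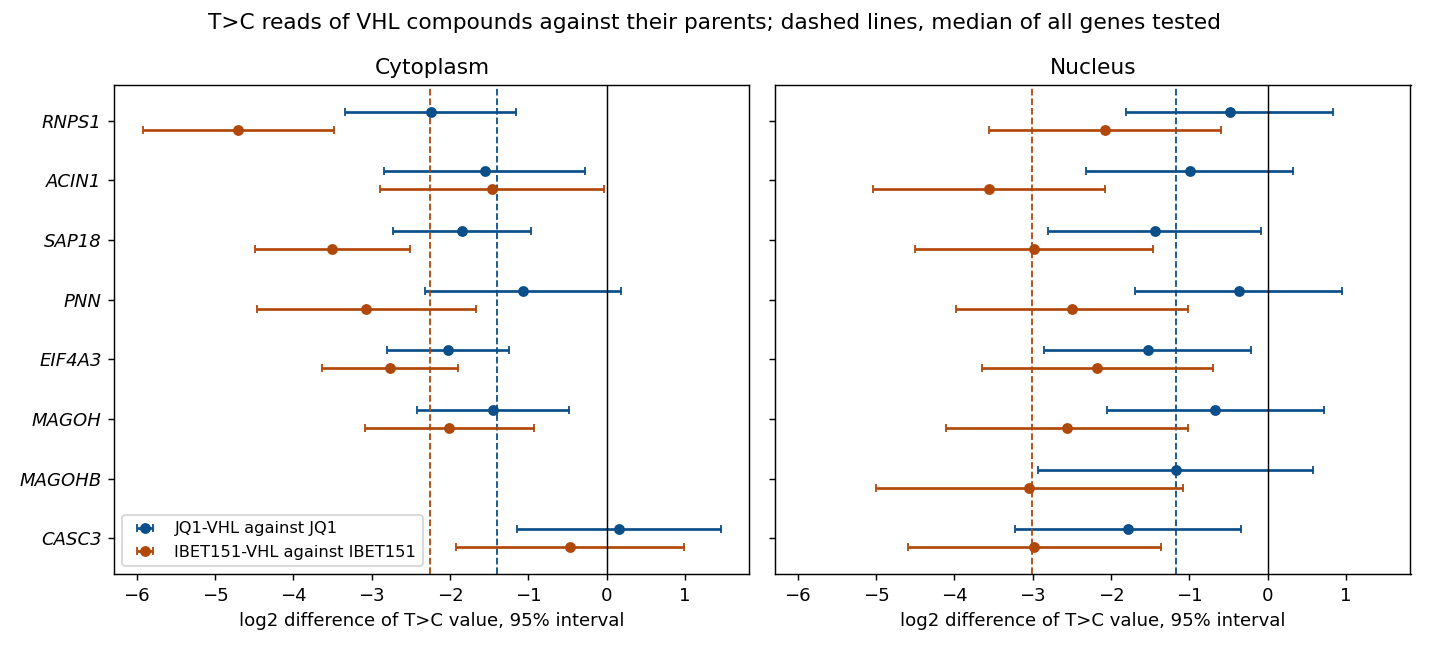
Log2 difference in T>C reads between each VHL compound and its parent for each member, with 95% intervals as bars, cytoplasm and nucleus in separate panels. RNPS1 has the lowest cytoplasmic value in both pairs (-2.25 and -4.70), and its nuclear value between JQ1-VHL and JQ1 is -0.48.

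Between JQ1-VHL and IBET151-VHL 0 of 7 members differed in cytoplasmic T>C reads by limma, edgeR or DESeq2 (3.05% of all genes by limma), and 2 had an unadjusted p under 0.05. RNPS1 was higher with JQ1-VHL in each library, by 1.72 (95% interval 0.64 to 2.81, limma adjusted p = 0.0673), and SAP18 by 1.04 (0.16 to 1.92, adjusted p = 0.211). MAGOH (-0.16, interval -1.13 to 0.81) and EIF4A3 (0.13, -0.65 to 0.91) lay closer together. Some alternatives, listed at the end, called 1 member as higher with JQ1-VHL in these cytoplasmic reads, such as the run block (5.13% of all genes). In the nucleus ACIN1 alone passed, 2.09 higher with JQ1-VHL (interval 0.76 to 3.41, adjusted p = 0.0301), where 11% of all genes passed. That ACIN1 call held in 9 of 16 alternatives, and its difference ranged from 1.58 to 2.74 over all 16; it was lost without IBET151-VHL replicate 1 (1.76) or 3 (1.88) and without JQ1-VHL replicate 2 (1.58) or 3 (1.93). Without JQ1-VHL replicate 1, 6 of 8 members passed there, beside 54.1% of all genes, and with the run block 4 did, beside 45.4%. JQ1 and IBET151 differed for no member in either fraction (limma, edgeR and DESeq2, 0% of all genes by limma), with none at an unadjusted p under 0.05. Over all reads neither of these pairs, fitted with no block, gave a member in either fraction by any of the 3 tools (0.016% of all genes between the VHL compounds in the cytoplasm and 0% elsewhere, by limma), with none at an unadjusted p under 0.05.

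Whether a compound changed new RNA differently in the 2 fractions was tested as the nuclear minus the cytoplasmic log2 change. RNPS1 passed under IBET151-VHL, where its cytoplasmic T>C reads fell more than its nuclear T>C reads. The RNPS1 difference was 3.61 ± 0.87 (SE, 95% interval 1.89 to 5.33, limma adjusted p = 0.00159). Of all genes 1.57% passed in that direction, and the median of all genes was -1.24. With a pseudocount of 1 a gene with few cytoplasmic reads in DMSO cannot fall far there, which fixed a negative sign for 63.8% of the 12067 genes tested. RNPS1 was not among these, and of the other 4371 genes 4.32% passed as higher, with a median of 0.44. The call held in all 22 alternatives, with a difference of 1.82 to 4.63 and adjusted p from 8.117e-05 to 0.04042. Within the 2 runs of library numbers that held both groups the difference was 3.44 and 2.72. The cytoplasmic term rests on 3 T>C reads. Under JQ1-VHL the RNPS1 difference was 2.61 (interval 0.89 to 4.33, adjusted p = 0.0553), did not pass, and was 1.52 and 2.80 within runs. With median-ratio scaling (3.04, adjusted p = 0.0273), by DESeq2 (3.00, adjusted p = 0.0459) or without nuclear JQ1-VHL replicate 1 (3.24, adjusted p = 0.0115) it passed. The replicate block and the run block also each called 1 member as higher under JQ1-VHL, beside 7.14% and 8.98% of all genes in either direction.

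The other members did not pass under either VHL compound. Under IBET151-VHL SAP18 was at 1.26, PNN at 0.38, EIF4A3 at 0.31, MAGOH at -0.37, CASC3 at -0.76 and ACIN1 at -1.24. MAGOHB was at -2.49 (95% interval -4.47 to -0.51, limma adjusted p = 0.0544). Its cytoplasmic change could not go below -2.49 while its nuclear change was -4.75, so its negative sign was fixed, as were those of ACIN1 and CASC3, and these values are no result. Under JQ1-VHL, where the median of all genes was -0.30 and 5.68% of all genes passed in either direction, the sign of MAGOHB (-0.67) was fixed in the same way. Under JQ1 and IBET151 0 of 8 passed by limma, edgeR or DESeq2 (0.191% and 0.0994% of all genes by limma), with 0 at an unadjusted p under 0.05. Over all reads 0 of 8 passed under any compound by the same 3 tools, again with 0 at an unadjusted p under 0.05, against 0% of all genes and 0.00692% under IBET151-VHL.

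**Figure D5:**
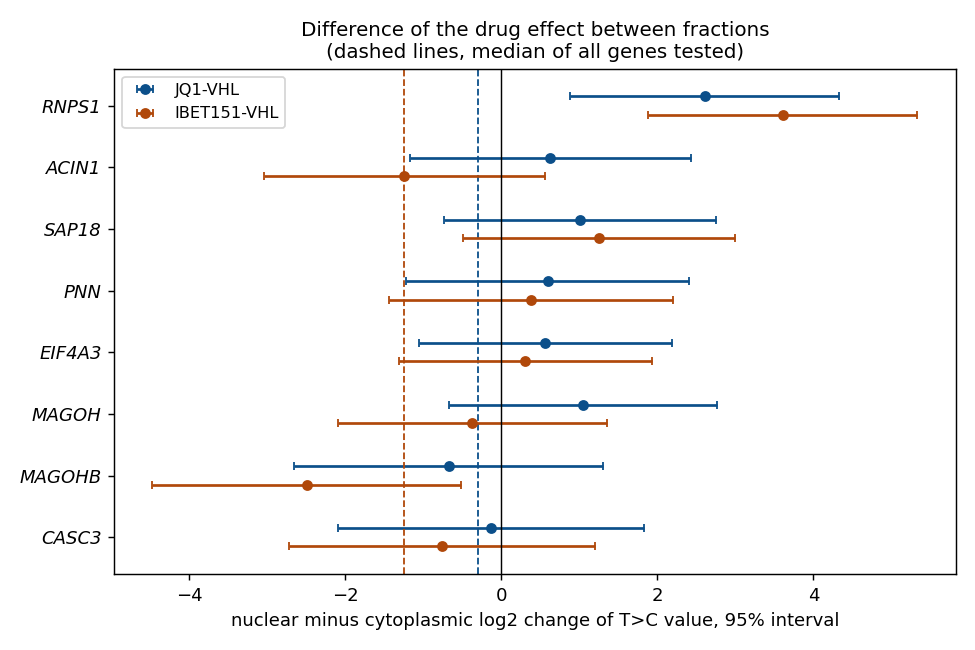
Nuclear minus cytoplasmic log2 change of T>C reads for each member under JQ1-VHL and IBET151-VHL, with 95% intervals as bars; dashed lines are the medians of all genes (-0.30 and -1.24). RNPS1 under IBET151-VHL (3.61) lies above 0 with its whole interval; MAGOHB (-2.49) lies lowest, with a sign that its few cytoplasmic reads had fixed.

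Further genes of the pathway were read from 4 lists. Of 16 genes for assembly and partners of the complex, 14 were tested over all reads in the cytoplasm. There 4.82%, 12.9%, 2.52% and 15.8% of all genes passed in either direction under JQ1, JQ1-VHL, IBET151 and IBET151-VHL. A count near these shares is no result about a list. Under JQ1, JQ1-VHL and IBET151 1 was lower, each time CWC22, the splicing factor that brings EIF4A3 to the spliceosome, at -1.61, -1.19 and -1.44. Under IBET151-VHL 3 were lower: CWC22 (-1.86), PYM1 (-0.84), which takes the complex off RNA at the ribosome, and POLDIP3 (-0.59). In T>C reads 12 of 13 were lower in the cytoplasm under JQ1-VHL and 11 under IBET151-VHL, where 82.8% and 88.3% of all genes were. In the nucleus 7 and 11 of 14 were lower, against 60.5% and 83.9% of all genes, with CWC22 (-6.81) and its partner CWC27 (-5.87) lowest by adjusted p under IBET151-VHL, next to POLDIP3 (-4.38). EIF4A1, a translation initiation paralog of EIF4A3, shared the direction of RNPS1 in the difference between fractions under IBET151-VHL (2.35, limma adjusted p = 0.0290).

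Of 18 factors of nonsense-mediated decay, the pathway that reads the complex, 17 were tested over all reads in the cytoplasm. There 12.9% of all genes passed in either direction under JQ1-VHL and 15.8% under IBET151-VHL. Under JQ1-VHL 3 were lower: SMG8 (-1.60) and SMG9 (-1.18), which restrain the kinase SMG1, and UPF2 (-0.88), which bridges the helicase UPF1 to the complex. Under IBET151-VHL 5 were lower, among them SMG8 (-2.69), SMG9 (-1.55) and UPF2 (-1.09). JQ1 gave SMG8 (-1.26) and IBET151 gave 0. In T>C reads 8 and 6 of 10 were lower in the cytoplasm under JQ1-VHL and IBET151-VHL, and 5 and 15 of 17 in the nucleus. Of all genes 82.8%, 88.3%, 60.5% and 83.9% were lower in those T>C comparisons. In the difference between fractions under IBET151-VHL PNRC2 (3.39) and GSPT1 (2.86) passed as higher.

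Of 13 RNAs known as targets of that decay, 10 were tested over all reads in the cytoplasm. There 4.82%, 12.9%, 2.52% and 15.8% of all genes passed in either direction under JQ1, JQ1-VHL, IBET151 and IBET151-VHL. GADD45A (1.02) and GADD45B (1.98), stress-induced growth arrest genes, were higher under JQ1, and GADD45B (1.95) under IBET151. GADD45A and ATF4, the transcription factor of the integrated stress response, were lower under JQ1-VHL (-1.98 and -1.17) and IBET151-VHL (-1.70 and -1.43). In cytoplasmic T>C reads 6 of 9 were lower under each VHL compound, and in the nucleus 4 and 5 of 10, again beside 82.8%, 88.3%, 60.5% and 83.9% of all genes. ATF4 also had a positive difference between fractions (2.48 and 2.66), and under IBET151-VHL SNHG1 (2.52) did too.

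SAP18 also belongs to the SIN3 histone deacetylase complex, whose 12 listed genes were all tested over all reads. In the cytoplasm 3 were lower under JQ1-VHL and 4 under IBET151-VHL, beside 12.9% and 15.8% of all genes that passed in either direction. They were led by the SIN3-associated factors ARID4A (-1.66 and -2.02) and ARID4B (-1.23 and -1.45), and SIN3A (-0.57 and -0.69) passed under both. JQ1 and IBET151 gave 0. In T>C reads 7 of 8 were lower in the cytoplasm under each VHL compound, and 6 and 11 of 12 in the nucleus, beside 82.8%, 88.3%, 60.5% and 83.9% of all genes. In the difference between fractions none passed as higher, and those that passed as lower, led by SUDS3, had signs fixed by few cytoplasmic reads, as had those of the decay lists.

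The genes most like each member were taken by Pearson correlation of log2 values over all reads across the 14 cytoplasmic libraries, among 10233 genes with a mean of at least 50. The likest gene was C4orf46 for RNPS1 (r = 0.958), CCDC34 for ACIN1 (0.979), RAB7A for SAP18 (0.974) and HLTF for PNN (0.973). It was FUNDC1 for MAGOH (0.964), MMADHC for MAGOHB (0.953), MAP2K3 for EIF4A3 (0.964) and MFN2 for CASC3 (0.917). No member was the likest gene of another. Within the set, RNPS1 and MAGOH had r = 0.842, and RNPS1 and PNN 0.274. These libraries share depth, scaling and treatment, and the values are a description.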

How the data were processed

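SLAMseq libraries of MDA-MB-453 cells (28, in 10 groups) were analysed from 2 deposited tables, of all reads and of T>C reads. The protocols in the labels give 10% Drosophila S2 cells as a spike before fractionation, alkylation of the RNA, ERCC RNA in proportion to RNA mass, and 3′ end sequencing of polyadenylated RNA over 100 bp. The submitters' processing notes name bcl2fastq, Trimmomatic 0.39, HISAT2, HTSeq and DESeq2, with the builds dm3, hg19 and GRCh37. The way T>C reads were called is not given in the sources used here. The deposited values are a signal made by the authors from read counts divided by a library factor. All values (100%, tolerance 0.001) were whole multiples of 1 read, worth 0.374 to 0.951 in cytoplasmic and 0.67 to 2.24 in nuclear libraries.

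Values were analysed as log2(value + 1) with limma 3.58.1 (R 4.3.3, trended variance), with the 14 libraries of a fraction in 1 fit. All 28 libraries entered the comparison of fractions and of the change between fractions. Genes entered if 2 or more libraries reached a value of 10 (all reads) or 5 (T>C), and p-values were adjusted by Benjamini-Hochberg over all of them. The ratio of T>C to all reads was log2((T>C + 1)/(all + 1)). Recovered reads were tested with edgeR 4.0.16 and DESeq2 1.42.0. Other alternatives were the pseudocount, the minimum, median-ratio scaling, blocks for replicate number or run of library numbers, only the groups compared, and each library left out. Scripts were tested on simulated data. Same-numbered libraries deviated together over all reads (lowest r 0.203 in the cytoplasm and 0.159 in the nucleus, in DMSO, JQ1, JQ1-VHL and IBET151-VHL). IBET151 did not pair by number (lowest r -0.533 and -0.224, against JQ1). For T>C reads every pair passed r = 0.1 only for JQ1 in the nucleus.

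The members and lists were chosen with earlier results of these data known. Every member was named with its values. From each further list up to 3 genes per comparison were named, those with the smallest adjusted p among those that passed, with further names only where a count of 5 or fewer was spelled out. The gene most like each member was also named.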

Additional observations from a re-analysis of the deposited data

Results flagged for a closer look

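RNPS1 was marked because its change in T>C reads under IBET151-VHL differed between the fractions by the test of that difference. The nuclear minus cytoplasmic log2 change was 3.61 (limma adjusted p = 0.00159). Cytoplasmic RNPS1 had 3 T>C reads over the 3 IBET151-VHL libraries.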

How the results depend on the processing

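Counts of members past the threshold that moved by over 1.5 times, or reversed, are given by setting (limma unless named). A percentage beside a count is the share of all genes that passed there in either direction. A count near that share is no result about the members. With a block for the library number run, counts over all cytoplasmic reads were 1 (JQ1-VHL, 26.8%) and 1 (IBET151-VHL, 28.6%). In the nucleus they were 4 (JQ1, 35.1%), 2 (JQ1-VHL, 41%), 2 (IBET151, 22.3%) and 6 (IBET151-VHL, 59.3%). For T>C reads that block gave 2 (cytoplasm, JQ1, 23.8%) and 1 (cytoplasm, JQ1-VHL against IBET151-VHL, 5.13%). In the nucleus it gave 1 (JQ1, 11.6%), 8 (JQ1-VHL, 84.2%), 7 (JQ1-VHL against JQ1, 61.9%) and 4 (JQ1-VHL against IBET151-VHL, 45.5%). It gave 8 for the nuclear ratio under JQ1-VHL (70.2%), and 1 (JQ1-VHL, 8.98%) and 2 (IBET151-VHL, 31.9%) for the change between fractions. With the replicate block, counts over all reads in the nucleus were 1 (JQ1-VHL, 26.1%), 1 (IBET151, 5.67%) and 4 (IBET151-VHL, 46%). They were 7 for IBET151-VHL against IBET151 (65.5%) and 5 for JQ1 against IBET151 (24%), and those with IBET151 rest on numbers that do not pair. T>C counts with the replicate block were 2 (cytoplasm, JQ1, 22.7%), 1 (cytoplasm, JQ1-VHL against IBET151-VHL, 4.24%) and 2 (nucleus, JQ1-VHL against JQ1, 26.3%). They were 6 for the nuclear ratio under JQ1-VHL (47.5%), and 1 (JQ1-VHL, 7.14%) and 2 (IBET151-VHL, 28.5%) between fractions. The block moved no other count by over 1.5 times. With median-ratio scaling EIF4A3 was the 1 member called under each compound in cytoplasmic all reads. The shares were 6.02% (JQ1), 11.3% (JQ1-VHL), 5.08% (IBET151) and 16.9% (IBET151-VHL). T>C counts were 1 (cytoplasm, JQ1-VHL against IBET151-VHL, 4.57%), 2 (nucleus, JQ1-VHL, 35.4%), 0 (nucleus, JQ1-VHL against IBET151-VHL, 5.2%) and 1 (change between fractions, JQ1-VHL, 3.75%). Nucleus against cytoplasm in DMSO gave 5 (1 higher, 4 lower, with RNPS1 reversed to -1.09, 54.8%). A pseudocount of 0.5 gave 1 (T>C, cytoplasm, JQ1-VHL against IBET151-VHL, 4.84%) and 0 (cytoplasmic ratio, JQ1, 3.7%). A pseudocount of 5 gave T>C counts of 4 (JQ1, 40.2%) and 2 (IBET151, 20.6%) in the cytoplasm. In the nucleus it gave 1 (JQ1, 7.26%) and 0 (JQ1-VHL against IBET151-VHL, 1.57%). It gave 2 for the cytoplasmic ratio under JQ1 (17.5%). Between fractions under IBET151-VHL it gave 4 (1 higher, and as lower ACIN1, CASC3 and MAGOHB, whose sign was fixed, 52%). Without a minimum the JQ1 cytoplasmic counts were 2 (T>C, 10.1%) and 0 (ratio, 2.75%). With 5 times the minimum they were 0 (22.6%) and 0 (6.66%), and JQ1-VHL against IBET151-VHL gave 1 (19.4%). For JQ1 in cytoplasmic T>C reads edgeR gave 0 (11.4%). DESeq2 gave 2 (nucleus, JQ1-VHL against IBET151-VHL, 26.8%) and 1 (change between fractions, JQ1-VHL, 1.38%). Fits of only the groups compared gave T>C counts of 4 (cytoplasm, JQ1, 29.2%), 2 (nucleus, JQ1-VHL, 45.9%), 0 (nucleus, JQ1-VHL against IBET151-VHL, 0%) and 2 (change between fractions, IBET151-VHL, 27.1%). Their ratio counts were 3 (cytoplasm, JQ1, 24.1%) and 1 (nucleus, JQ1-VHL, 32.3%). PNN over all nuclear reads under IBET151 reversed to -0.60 with the run block. The cause was not tested.

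Each library was also left out in turn, with shares of all genes given as above. The counts over all cytoplasmic reads ranged from 0 to 1 for JQ1, IBET151 and IBET151-VHL (1 without DMSO replicate 2, beside 3.5%, 4.31% and 12.9%). For JQ1-VHL they did too (1 without DMSO replicate 3, 16.7%). For JQ1 in the cytoplasm the T>C count ranged from 0 to 1 (0 without DMSO replicate 1 or 2 or JQ1 replicate 3, beside 10.9%, 7.37% and 10.1%). The JQ1 ratio count ranged from 0 to 1 (0 without any 1 DMSO library or JQ1 replicate 2 or 3, beside 2.13% to 7.37%). JQ1-VHL against IBET151-VHL ranged from 0 to 1 in the cytoplasm (1 without JQ1-VHL replicate 1 or IBET151-VHL replicate 2, beside 5.77% and 2.74%). In the nucleus it ranged from 0 to 6 (6 without JQ1-VHL replicate 1, 54.1%). JQ1-VHL against JQ1 ranged from 3 to 5 in the cytoplasm (3 without JQ1 replicate 2, 36.6%) and from 0 to 1 in the nucleus (1 without JQ1-VHL replicate 2, 21.6%). In nuclear T>C reads JQ1-VHL ranged from 2 to 5 (2 without JQ1-VHL replicate 1 or DMSO replicate 2, beside 31.7% and 30.4%). The nuclear ratio ranged from 0 to 8 under JQ1-VHL (8 without DMSO replicate 3, 53.6%) and from 4 to 8 under IBET151-VHL (4 without DMSO replicate 1, 47.7%). Nucleus against cytoplasm over all DMSO reads ranged from 1 to 3 (1 without nuclear DMSO replicate 2 or cytoplasmic DMSO replicate 3, beside 36.7% and 35.8%). The T>C change between fractions ranged from 0 to 1 under JQ1-VHL (1 without nuclear JQ1-VHL replicate 1, 8.14%). Under IBET151-VHL it ranged from 1 to 2. It was 2 without nuclear IBET151-VHL replicate 2 or 3 (26.3% and 21.4%) or cytoplasmic DMSO replicate 2 (23.3%). Depth limited the cytoplasmic T>C reads most, with 0 to 3 reads per group for MAGOHB, CASC3, ACIN1 and RNPS1 under some compounds.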
